A study of Mus musculus with 8 samples.

Results

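The genes described here are 9 genes of the plasminogen system and of secreted serine proteases with their inhibitors, namely Plau, Plaur, Plat, Serpine2, Serpinf1, Prss23, Htra1, Htra3 and Serpinb6a. Every probe set was taken that the platform annotation pairs with exactly 1 of these symbols. This gave 15 probe sets for 8 of the 9 genes, out of 17097 genes with a probe set of 1 symbol. Serpine2, which encodes the thrombin and urokinase inhibitor protease nexin-1, is paired with no probe set in the annotation used here, so it has no value.

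The arrays hold RNA of dermal fibroblasts from 4 old (18 months) and 4 young (2 months) male C57Bl/6 mice, with 1 array for each mouse. The labels name no transgene and no treatment for either age. Cells were sorted from digested skin, freed of its subdermis, as carrying Pdgfra and CD34 and lacking CD45, CD117, CD24, CD31 and EpCam. The RNA of 5000 cells a mouse was amplified over 21 cycles before labelling. In such bulk samples, fewer cells expressing a gene and less RNA per cell cannot be told apart. Sample titles carry numbers in 2 runs, 1328 to 1331 and 1333 to 1336, each with 2 old and 2 young mice. Collection took 2 mice of each age a day, and whether a run is a day is not stated.

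Plasminogen circulates as an inactive precursor. Tissue-type plasminogen activator (Plat) and urokinase (Plau) cut it into plasmin, a serine protease that dissolves fibrin and activates other matrix proteases. The urokinase receptor (Plaur) holds urokinase at the cell surface, and serpins trap these proteases. In skin the system is known for wound healing and for remodelling of the dermal matrix. Htra1 and Htra3 encode secreted serine proteases that cut matrix proteins and are known to dampen TGF-beta family signals. Prss23 is a secreted serine protease of which less is known.

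Promoter sequence was at hand for 7 of the 9 genes in RefSeq's annotation of build GRCm38.p6, not for Plau and Plat. Windows of 250 bases directly upstream of an annotated start are shown for 3 genes that the results turn on. They are Prss23, which had the widest difference, Plaur, the receptor, and Htra1, which had the narrowest spread between mice. Each was searched on both strands for 4 motifs, the AP-1 site TGACTCA, the GC box GGGCGG, the TATA box TATAAA and the CCAAT box. Capitals mark the matches, and adjoining or overlapping matches run together. The Prss23 entry has 7 annotated starts. The window of the start farthest upstream (chr7:89527188-89527437, minus strand) and that of the next start (chr7:89518205-89518454, minus strand) are printed, with those of Plaur (chr7:24462233-24462482, plus strand) and Htra1 (chr7:130935953-130936202, plus strand).
Prss23, start farthest upstream: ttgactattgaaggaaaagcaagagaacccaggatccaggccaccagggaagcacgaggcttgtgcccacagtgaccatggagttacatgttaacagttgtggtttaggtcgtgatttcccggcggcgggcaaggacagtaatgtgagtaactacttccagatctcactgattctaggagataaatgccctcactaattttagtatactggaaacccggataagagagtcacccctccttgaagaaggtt
Prss23, next start: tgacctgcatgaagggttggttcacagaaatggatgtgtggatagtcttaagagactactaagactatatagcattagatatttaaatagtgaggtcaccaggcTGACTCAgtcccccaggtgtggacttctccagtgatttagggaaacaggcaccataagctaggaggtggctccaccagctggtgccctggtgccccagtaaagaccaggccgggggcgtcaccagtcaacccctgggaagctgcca
Plaur: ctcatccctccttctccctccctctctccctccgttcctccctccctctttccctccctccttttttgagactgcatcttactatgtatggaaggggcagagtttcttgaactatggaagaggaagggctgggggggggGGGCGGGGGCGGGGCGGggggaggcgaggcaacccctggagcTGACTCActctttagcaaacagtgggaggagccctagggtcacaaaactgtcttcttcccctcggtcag
Htra1: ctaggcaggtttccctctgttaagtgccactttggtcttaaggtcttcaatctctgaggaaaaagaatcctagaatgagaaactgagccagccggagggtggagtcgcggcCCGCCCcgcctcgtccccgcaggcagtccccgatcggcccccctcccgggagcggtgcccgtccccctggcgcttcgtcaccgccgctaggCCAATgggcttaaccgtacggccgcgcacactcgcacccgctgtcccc

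The window of the Plaur start held 1 AP-1 match and 3 GC boxes. The first Prss23 window held none of the 4 motifs, and the next held 1 AP-1 match. Of the Prss23 windows not printed, that of start 3, counted from upstream, held the same AP-1 match. Those of starts 4 to 7 held 1, 3, 3 and 3 GC boxes, and the windows of starts 5 to 7 overlap. The Htra1 window held 1 GC box and 1 CCAAT box. Among 32817 such windows of all annotated starts, 4.46% held the AP-1 letters, 32.7% the GC box, 12.4% the TATA box and 33.8% the CCAAT box. Which start a probe set reports on is not known here, and a match is only a run of letters.

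All values are log2 expression, on which a difference of 1 is a doubling, and the text uses the brightest probe set of a gene unless it names another. The genes were chosen with the old against young results known, so their age differences are given as a description, without a test. By the brightest probe set, 7 of the 8 genes were higher on average in old mice, against 53.8% of all genes. In 5 of the 8, every old mouse lay above every young mouse, against 4.49% of all genes. No gene of the 8 had its young mice wholly above its old mice, and in either direction 9.7% of all genes had groups that lay apart. The median difference was 0.31 over the 8 genes and 0.01 over all genes. Because of how the genes were chosen, nothing is read from these shares.

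**Figure D1:**
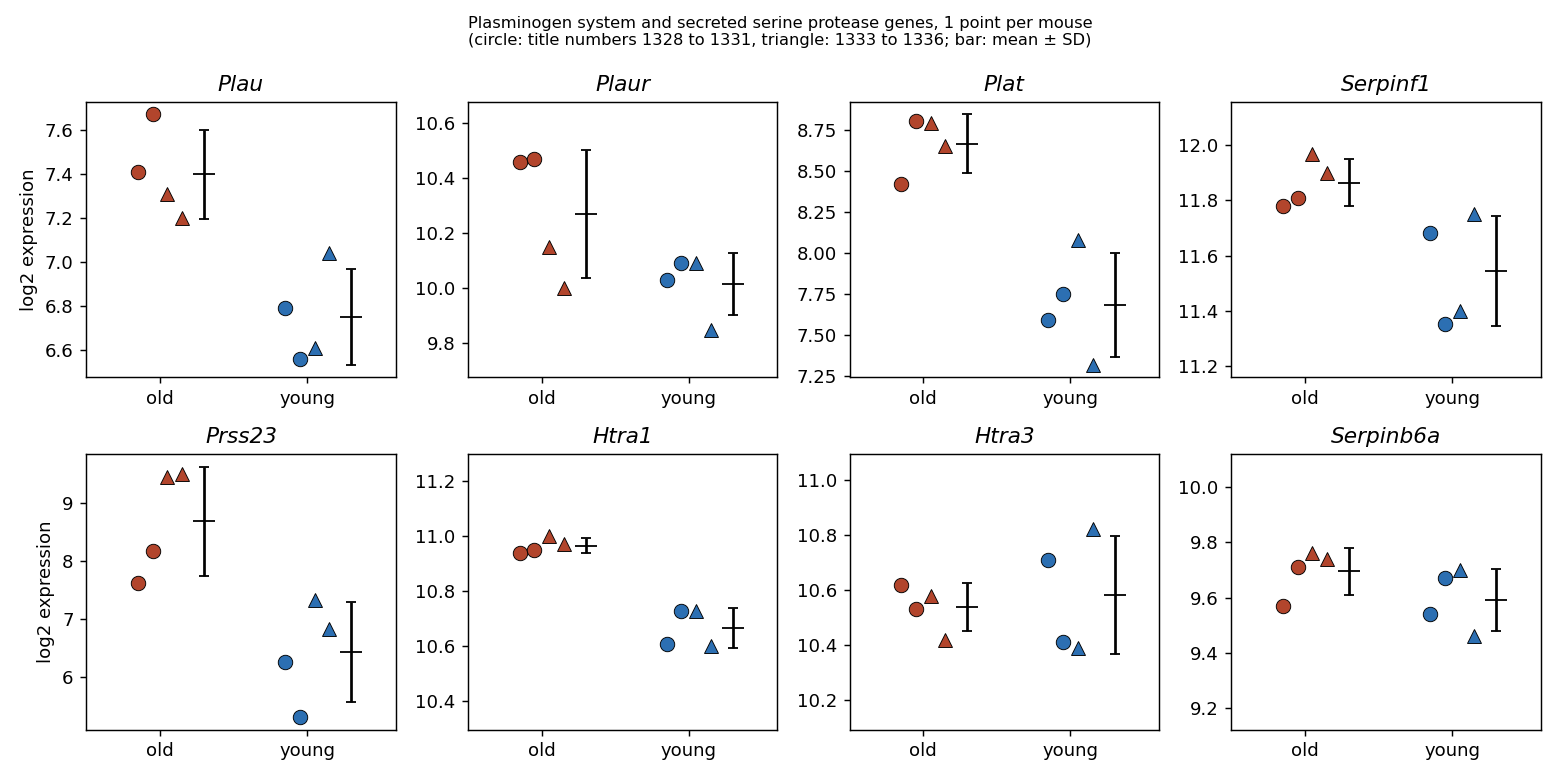
Log2 expression (vertical axes, scaled by gene and spanning at least 1 unit) of 8 genes in 4 old and 4 young mice, by the brightest probe set. Circles and triangles are the 2 runs of title numbers and bars give the mean ± SD; old and young mice do not overlap for Plau, Plat, Serpinf1, Prss23 and Htra1, and in Prss23 the triangles lie above the circles within each age.

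Both plasminogen activator genes were higher in every old mouse than in any young mouse. Plat had 8.42, 8.80, 8.79 and 8.65 in old replicates 1 to 4, against 7.59, 7.75, 8.08 and 7.32 in young replicates 1 to 4. The groups lay apart by 0.34 between the lowest old and the highest young mouse. The mean was 8.66 ± 0.18 in old and 7.69 ± 0.32 in young mice (SD, n = 4 each), a difference of 0.98 ± 0.15 (SE), or 1.97-fold.

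Plau had 7.41, 7.67, 7.31 and 7.20 in old replicates 1 to 4, against 6.79, 6.56, 6.61 and 7.04 in young replicates 1 to 4. Old and young mice were again apart, by 0.16, with young replicate 4 nearest to the old mice. The difference was 0.65 ± 0.13 (SE), or 1.57-fold.

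The receptor gene Plaur had 10.46, 10.47, 10.15 and 10 in old replicates 1 to 4, against 10.03, 10.09, 10.09 and 9.85 in young replicates 1 to 4. The groups overlapped, since old replicate 4 lay below 3 of the 4 young mice. Old replicates 1 and 2 were the highest of the 8. The difference was 0.26 ± 0.12 (SE), or 1.19-fold.

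Serpins were represented by Serpinf1 and Serpinb6a. Serpinf1 encodes pigment epithelium-derived factor, a secreted serpin that restrains blood vessel growth and does not inhibit proteases. It had 11.78, 11.81, 11.97 and 11.90 in old replicates 1 to 4, against 11.68, 11.35, 11.40 and 11.75 in young replicates 1 to 4. The groups did not overlap but came within 0.03 of each other. The difference was 0.32 ± 0.10 (SE), or 1.25-fold. Serpinb6a, an intracellular protease inhibitor, had 9.57, 9.71, 9.76 and 9.74 in old replicates 1 to 4, against 9.54, 9.67, 9.70 and 9.46 in young replicates 1 to 4. Its groups overlapped through old replicate 1, and the difference was 0.10 ± 0.08 (SE), or 0.06 without young replicate 4.

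Prss23 had the widest difference and the widest spread of the 8 genes. It had 7.63, 8.18, 9.46 and 9.51 in old replicates 1 to 4, against 6.26, 5.31, 7.34 and 6.83 in young replicates 1 to 4. Every old mouse was above every young mouse, by 0.29 at the closest. The mean was 8.70 ± 0.94 in old and 6.43 ± 0.87 in young mice (SD, n = 4 each). The difference was 2.26 ± 0.51 (SE), or 4.79-fold.

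Htra1 had the narrowest spread. It had 10.94, 10.95, 11.00 and 10.97 in old replicates 1 to 4, against 10.61, 10.73, 10.73 and 10.60 in young replicates 1 to 4. The old mice, with an SD of 0.03, lay 0.21 clear of the highest young mouse. The difference of 0.30 ± 0.06 (SE), or 1.23-fold, was thus small in size but large beside the spread between mice.

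The brightest probe set of Htra3 gave 10.62, 10.53, 10.58 and 10.42 in old replicates 1 to 4, against 10.71, 10.41, 10.39 and 10.82 in young replicates 1 to 4. All old values lay inside the range of the young ones. The difference was -0.05 ± 0.11 (SE), the only one of the 8 below 0.

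Probe sets of the same gene gave different age differences in some cases, most of all for Htra3. Its second probe set (1427029_PM_at, mean 8.01) differed by 0.40 ± 0.13 (SE) between old and young mice, and its least bright one (1431762_PM_at, mean 5.98) by 0.99 ± 0.16 (SE). In both, all 4 old mice lay above all 4 young mice. Over the 8 arrays the brightest probe set correlated with these by r = -0.034 and -0.126. They correlated with each other by r = 0.695, or 0.133 once the mean of each age was removed. The least bright of them gave 6.33, 6.62, 6.37 and 6.57 in old replicates 1 to 4, against 5.95, 5.56, 5.20 and 5.22 in young replicates 1 to 4. Whether the probe sets of Htra3 report on different transcripts was not tested. An age difference of Htra3 therefore depends on which probe set is read.

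For Prss23 the 3 probe sets ran in parallel but differed in size. The brightest (1437671_PM_x_at) is of a class that Affymetrix marks as able to bind other transcripts too. The second (1431057_PM_a_at, mean 6.22) differed by 2.57 ± 0.45 (SE), or 5.95-fold, and the least bright (1446560_PM_at, mean 6.02) by 0.66 ± 0.14 (SE). Old and young mice were apart in all 3, and pairs of them correlated by r = 0.935 to 0.965 over the 8 arrays, or 0.787 to 0.863 with age means removed. In the second, young replicates 2 and 4 lay at 4.24 and 4.32, near the median of 3.91 of the non-specific control probe sets.

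The probe sets of Serpinf1 differed by 0.32 and 0.34 and correlated by r = 0.965. In the second (1453724_PM_a_at) the groups overlapped, with the lowest old mouse at 11.52 and the highest young mouse at 11.54. The second probe sets of Plau and Plat were dim. Their means were 4.08 and 4.60, below 5.1, the median over all probe sets that served as the threshold for dim. They differed by 0.22 ± 0.11 and 0.20 ± 0.07 (SE), the same way as the bright ones. Plaur, Htra1 and Serpinb6a had 1 probe set each, so no second reading of them exists. Of the 15 probe sets, several of which share a gene, 14 were higher on average in old mice and 10 had groups that lay apart in that direction. Over all genes, by the brightest probe set, these shares were 53.8% and 4.49%. Of all 28898 probe sets with 1 symbol, 9.32% had groups apart in either direction, and the shares by direction were not taken. Because of how the genes were chosen, nothing is read from these counts.

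**Figure D2:**
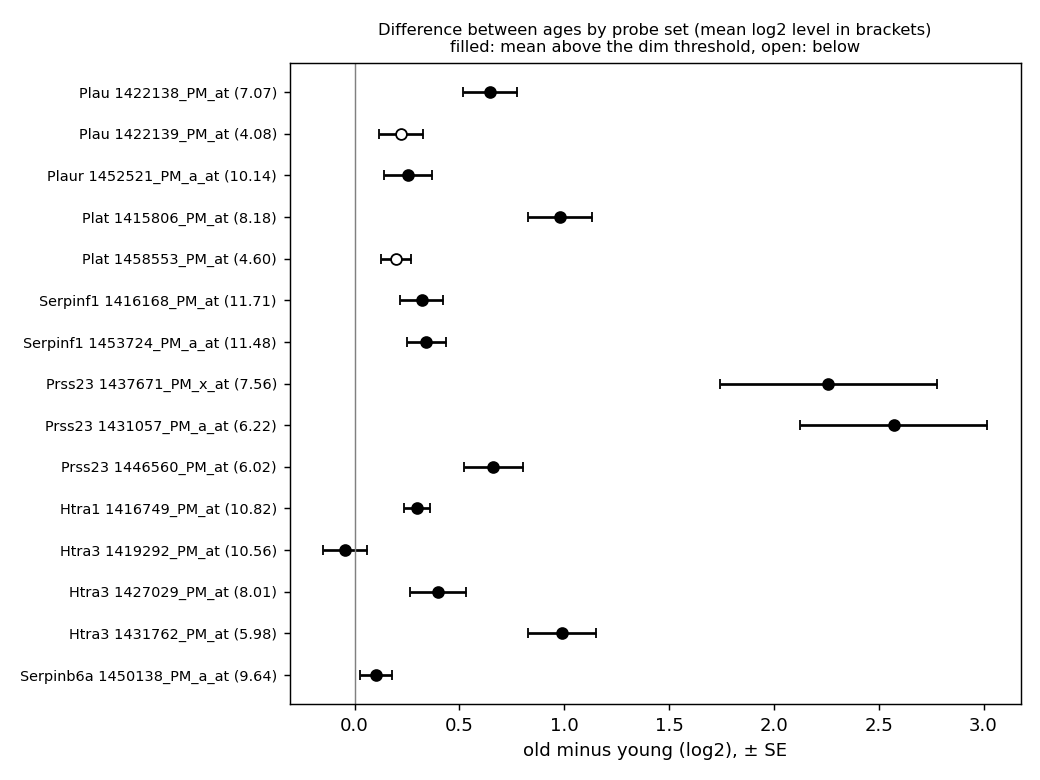
Difference of old minus young mice in log2 units (horizontal axis, point ± SE) for each of the 15 probe sets, with the mean log2 level in brackets; open points lie below 5.1. The 3 probe sets of Htra3 spread from -0.05 to 0.99, and those of Prss23 from 0.66 to 2.57.

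A measure that the choice of genes did not use is the difference between the runs of title numbers. It was tested with age as a term in limma over all 17097 genes, with Benjamini-Hochberg adjustment at 0.05. Of the 8 genes, 0 passed (2 at an unadjusted p under 0.05), where 0.0468% of all genes passed and 16.6% had an unadjusted p under 0.05. Prss23 came closest. It was higher in the second run by 1.44 ± 0.22 (SE; 95% interval 0.94 to 1.94; limma adjusted p = 0.0652). In old mice the run difference was 1.58 and in young mice 1.30, and all 4 pairs of a second-run and a first-run mouse of the same age showed it in each age. This was larger in size than the age difference of any of the other 7 genes.

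This run difference of Prss23 passed without young replicate 1 (1.66, limma adjusted p = 0.039). The other probe sets of Prss23 gave 0.74 and 0.22 (limma adjusted p = 0.366 and 0.389 over all probe sets), the same way but smaller. In both, the runs lay apart in old mice and overlapped in young mice. Young replicates 1 to 4 had 5.29, 4.24, 5.87 and 4.32 in 1431057_PM_a_at, and 5.90, 5.47, 5.78 and 5.62 in 1446560_PM_at. Over all probe sets, 0 of the 15 passed in limma (2 at an unadjusted p under 0.05), against 0.0692%. Plaur was lower in the second run, with a difference of -0.24 ± 0.09 (SE; limma adjusted p = 0.243), with differences of -0.39 in old mice and -0.09 in young mice. The other 6 genes differed between runs by -0.07 to 0.10, with 95% intervals that lay between -0.37 and 0.43. The median size of the run difference was 0.10 over all genes.

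**Figure D3:**
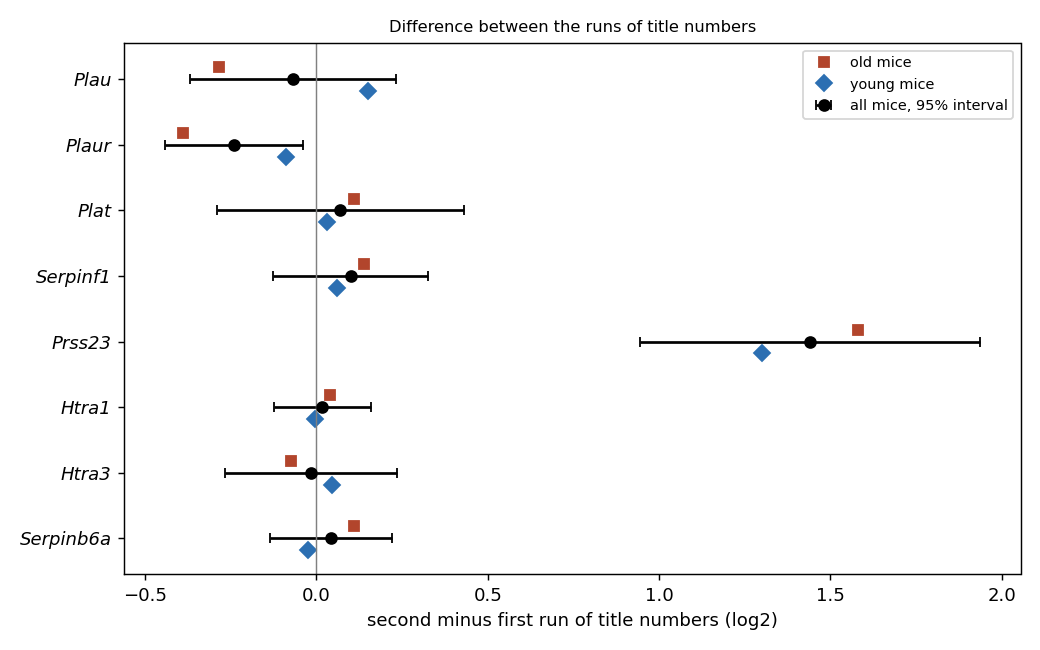
Second minus first run of title numbers in log2 units (horizontal axis) for 8 genes: black points with 95% intervals from all mice with age as a term, squares for old mice and diamonds for young mice. Prss23 lies at 1.44 with both ages above 1, Plaur at -0.24, and the rest near 0.

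The age difference was also set side by side within the runs. Prss23 differed by 2.12 in the first and 2.40 in the second run, Plat by 0.94 and 1.02, Serpinf1 by 0.28 and 0.36, and Htra1 by 0.28 and 0.32. Plau differed by 0.87 and 0.43, and Plaur by 0.41 and 0.11. The change of the age difference between runs (interaction) was -0.44 for Plau (95% interval -0.97 to 0.10) and -0.30 for Plaur (-0.66 to 0.06). In limma 0 of the 8 genes passed for it (0 at an unadjusted p under 0.05; limma adjusted p = 0.731 or higher), as did 0% of all genes, of which 7.33% had an unadjusted p under 0.05. With 2 mice of each age in a run these intervals are wide.

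Within ages, the genes did not vary together as a block. After removing each age's mean, the 28 pairs of genes had a median Pearson r of -0.06 over the 8 mice, with 13 pairs above 0 and 15 below. Plat, Htra1 and Serpinb6a varied together (r = 0.80 for Plat with Htra1, 0.91 for Plat with Serpinb6a and 0.89 for Htra1 with Serpinb6a). The brightest probe set of Htra3 ran against these 3, with r = -0.79, -0.88 and -0.86, and together with Serpinf1 (r = 0.80) and Plau (r = 0.74). Young replicate 4, lowest of its age in Plat, Htra1 and Serpinb6a and highest of its age in Plau, Serpinf1 and Htra3, weighed on these values. Without it, r was 0.68, 0.86 and 0.82 among Plat, Htra1 and Serpinb6a, and 0.65 and 0.53 for Htra3 with Serpinf1 and with Plau. It was then -0.61, -0.81 and -0.77 for Htra3 with Plat, Htra1 and Serpinb6a. Plaur and Prss23 had r = -0.70, but r = -0.04 once the means of the runs were removed too. With run means removed, Plat, Htra1 and Serpinb6a still had r of 0.80 to 0.91 with each other, and Htra3 -0.79 to -0.89 with them. The points of each r share arrays and their normalization, so these are descriptions.

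**Figure D4:**
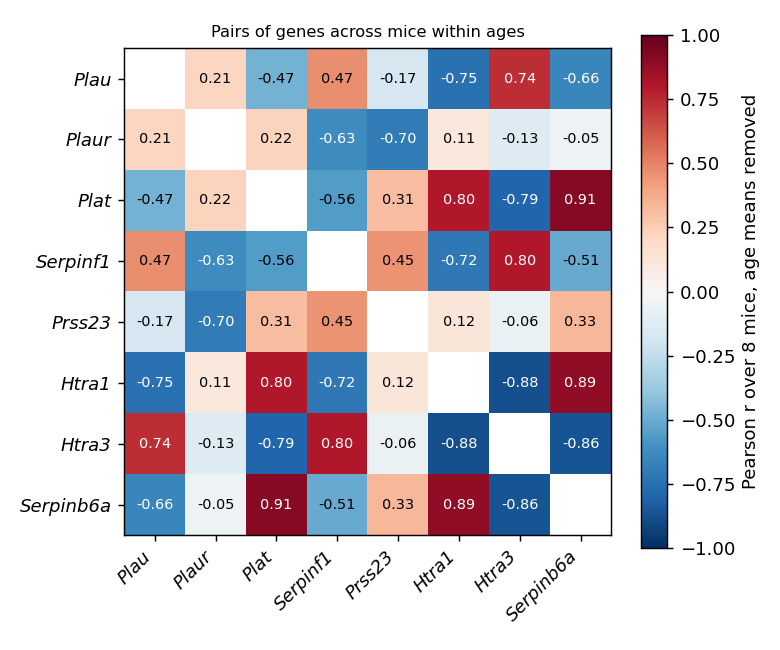
Pearson r for each pair of 8 genes over 8 mice after removing the mean of each age, from -1 (blue) to 1 (red). Plat, Htra1 and Serpinb6a have r of 0.80 to 0.91 with each other and -0.79 to -0.88 with Htra3.

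Among 10552 other genes above the dim threshold, those most like each gene over the 8 mice with age means removed were picked by Pearson r. For Plat these were Glis2 (r = 0.99) and Ubqln4 (0.97), for Plau Tmub1 (0.97) and Lypd9 (0.97), and for Plaur Inka2 and Tob2 (0.98 each). For Prss23 they were Txndc9 and Ppid (0.99 each), for Serpinf1 Osr1 and Ly6c1 (0.98 each), and for Serpinb6a Ccdc157 (0.983) and Golim4 (0.975). For Htra1 they were Rapgef6 and Selenoh (0.97 each), and for Htra3 Lama3 (0.99) and Plekhm1 (0.97). With 8 mice and so many candidates, values of this size are found for each gene. By its brightest probe set, Prss23 varied within ages largely by run, and Txndc9 and Ppid were higher in the second run by 0.45 and 0.56. With run means removed too, their r with Prss23 was 0.934 and 0.944, and their age differences were 0.00 and -0.03.

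Around these genes, 101 others were listed by role, of which 89 had a probe set. In limma, 13 of the 89 passed at an adjusted p of 0.05 over all genes, 6 higher and 7 lower in old mice, or 14.6% against 3.97% of all genes. Over all genes 1.82% were higher and 2.15% lower in old mice. The lists were drawn up with some of these results known, so the share is a description. The median difference was 0.045 over the 89 genes and 0.01 over all genes.

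Of 12 genes for plasminogen, its receptors and its clearance, 1 fell and none rose (median 0.04). Vtn, or vitronectin, which binds the urokinase receptor, had 5.83, 5.90, 5.96 and 5.86 in old replicates 1 to 4, against 6.56, 6.25, 6.40 and 6.50 in young replicates 1 to 4. It fell by 0.54 ± 0.08 (SE; limma adjusted p = 0.00515), with the groups apart. S100a10, whose protein forms a plasminogen-binding complex with annexin A2, differed by -0.26 ± 0.06 with its groups apart and did not pass (limma adjusted p = 0.0633). It passed with a prior by mean level (0.0313), with array weights (0.0461), with the mean of probe sets (0.0393) and after renewed quantile normalization (0.044). Anxa2 differed by -0.13, the clearance receptor Lrp1 by 0.11, and Plg itself lay below the dim threshold with a mean of 4.74. The integrin subunit gene Itgav differed by -0.27 (limma adjusted p = 0.17). None of these 4 passed.

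Of 7 genes listed as other inhibitors of plasminogen activators and plasmin, 0 passed in limma (0 at an unadjusted p under 0.05; median 0.07). In 6 of them both ages averaged under the dim threshold, among them Serpinb2 with a mean of 3.39 and Serpinf2 with 4.58, where a change could be missed. The remaining one, Pebp1, differed by 0.05. Pebp1 is not established as an inhibitor of these proteases, so the list held no established one above the dim threshold.

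Of 15 other serpins, 2 rose and 1 fell (median 0.045). Serpinb6c, a close relative of Serpinb6a, rose by 1.16 ± 0.18 (SE; limma adjusted p = 0.00785). It had 4.81, 5.66, 5.61 and 5.32 in old replicates 1 to 4, against 4.40, 4.07, 3.97 and 4.34 in young replicates 1 to 4. The young values thus lay below the dim threshold, and its probe set is of a class that can be shared by related transcripts, so signal of relatives cannot be told apart. Serpinb8, an intracellular serpin, fell by 0.66 ± 0.13 (limma adjusted p = 0.0237). The C1 inhibitor gene Serping1 rose by 0.42 ± 0.09 (limma adjusted p = 0.0361). Serpinb8 lost its call without old replicates 2 or 4 or young replicates 1, 3 or 4, and Serping1 without any single mouse but young replicate 4. Serpina3n and Serpinh1, the next by p, differed by 0.15 and -0.11 and did not pass, with Serpina3n at 0.23 without young replicate 1 and 0.08 without young replicate 2. The highest adjusted p of Serpinb8 and Serping1, both without old replicate 2, were 0.0733 and 0.103.

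Of 22 other serine proteases, namely HtrA, Prss, membrane, kallikrein, coagulation and complement ones, 2 rose and none fell (median 0.025). No HtrA, Prss or membrane protease among them passed in the main fit. Those that rose were the complement proteases C1s1, by 1.91 ± 0.22 (SE; limma adjusted p = 0.00184), and C1ra, by 1.35 ± 0.09 (limma adjusted p = 0.000107). The probe set of C1s1 is of the class that related transcripts can share. The mitochondrial family member Htra2 differed by 0.01, and Htra4 was dim, with a mean of 3.655. Fap, a protease of the fibroblast surface, had 5.05, 5.25, 5.62 and 5.68 in old replicates 1 to 4, against 6.22, 5.74, 6.02 and 6.06 in young replicates 1 to 4. Its difference of -0.61 ± 0.15 did not pass (limma adjusted p = 0.0622), and it passed with the title number run as a block (0.0306, where 5.38% of all genes passed), with a prior by mean level (0.0389) and with dim genes left out (0.0429). Prss12, which encodes neurotrypsin, differed by 0.53 ± 0.16 (limma adjusted p = 0.112, or 0.0388 with array weights).

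Of 18 genes whose proteins are processed by plasminogen activators, plasmin or HtrA proteases, 1 rose and 3 fell (median -0.02). Pdgfd, a growth factor whose latent form urokinase can cut, rose by 1.20 ± 0.19 (SE; limma adjusted p = 0.00675). It had 5.09, 5.83, 5.90 and 5.93 in old replicates 1 to 4, against 4.65, 4.30, 4.33 and 4.67 in young replicates 1 to 4, and its other probe set differed by 0.35. Bdnf, a neurotrophin whose precursor plasmin can cut, fell by 1.22 ± 0.18 (limma adjusted p = 0.00569) and by 0.44 on its other probe set. Its old mice, at 4.09 to 4.65, lay below the dim threshold, as did all young values of Pdgfd. Mmp3, a matrix metalloproteinase whose precursor plasmin can activate, fell by 0.46 ± 0.07 (limma adjusted p = 0.00749). The proteoglycan gene Bgn fell by 0.39 ± 0.08 (limma adjusted p = 0.0244). Bgn lost its call without old replicates 2 or 4 or any single young mouse (highest limma adjusted p = 0.0808, without old replicate 2). Fn1 and Fbln5, the next genes by p, differed by 0.19 and -0.24 and did not pass.

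Of 15 genes of the thrombin and tissue factor pathway, 1 rose and 2 fell (median 0.06). Procr, the receptor of protein C, had 11.58, 11.61, 11.49 and 11.43 in old replicates 1 to 4, against 10.49, 10.40, 10.43 and 10.55 in young replicates 1 to 4. It rose by 1.06 ± 0.07 (SE; limma adjusted p = 7.1e-05), or 2.08-fold, the groups lying 0.88 apart. F2r, the main thrombin receptor of fibroblasts, had 6.59, 7.02, 7.12 and 7 in old replicates 1 to 4, against 7.54, 8.09, 9.05 and 8.73 in young replicates 1 to 4. It fell by 1.42 ± 0.29 (limma adjusted p = 0.0259) and by 0.39 on its other probe set. It lost its call without any single old mouse and without young replicates 3 or 4 (highest limma adjusted p = 0.0654, without old replicate 2). The probe sets of Procr and F2r are of the class that related transcripts can share. F13a1, the fibrin-crosslinking factor XIII subunit, fell by 2.96 ± 0.38 (limma adjusted p = 0.00288). Pros1 and Gas6, the next by p, differed by 0.45 and 0.12 and did not pass. Without young replicate 4 they differed by 0.26 and 0.04.

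**Figure D5:**
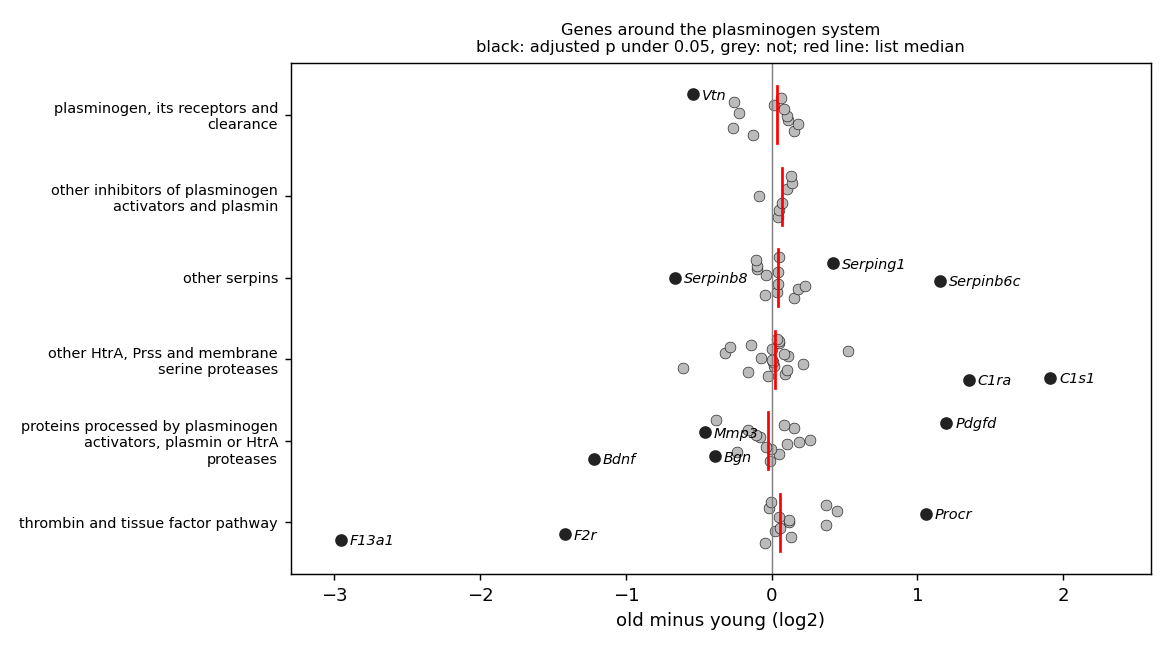
Old minus young mice in log2 units (horizontal axis) for the measured genes of 6 lists around the plasminogen system; black points passed limma's adjusted p of 0.05, grey points did not, and red lines are list medians. The 13 genes that passed lie on both sides of 0, from F13a1 at -2.96 to C1s1 at 1.91, and all list medians lie between -0.02 and 0.07.

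Array medians lay between 5.06 and 5.14. Of 9 fibroblast markers, 8 were above the dim threshold, with Col1a1 at 13.08 in old and 13.13 in young mice and Col1a2 at 6.92 in old and 7.33 in young mice. The exception was Pdgfra, a marker of the gate itself, at 4.47 in old and 5.06 in young mice, with a difference of -0.59 ± 0.16 (SE; limma adjusted p = 0.0808). Thy1 was the 1 of 9 fibroblast markers that passed, lower in old mice by 0.61 (difference -0.61 ± 0.07 SE; limma adjusted p = 0.00176). In limma, 4 of the 9 had an unadjusted p under 0.05. The mean of the 9 was 10.59 to 10.74 in old and 10.77 to 10.85 in young mice, so the ages did not overlap. Ptprc, the gene of the gated CD45, was dim, at 3.51 in old and 3.43 in young mice. Kit, the gene of the gated CD117, was dim too, with a mean of 3.80. Other genes gated against averaged above the dim threshold. Pecam1, the gene of CD31, had a mean of 5.97, and Epcam one of 5.25 with a difference of 0.40 (limma adjusted p = 0.0584). Cd24a, the gene of CD24, was at 5.33 in old and 8.07 in young mice (limma adjusted p = 0.000785). Of 11 macrophage and dendritic cell markers, 8 were dim in both ages, while Csf1r had a mean of 8.83, Cd68 of 6.75 and Cd74 of 6.41 over the 8 mice. None of the 11 passed (0 at an unadjusted p under 0.05 in limma). Of 8 endothelial markers 0 passed (1 at an unadjusted p under 0.05), with mean levels of 5.04 to 5.21 in old and 4.91 to 5.13 in young mice. Of markers of neutrophils and monocytes, T and natural killer cells, mast cells, pericytes, Schwann cells, adipocytes and erythrocytes, 0 passed (0 at an unadjusted p under 0.05).

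The means of other marker lists differed with age or with single mice, in places through few genes. Their part in the results was not tested. The mean of 7 melanocyte markers was 5.94 to 6.10 in old and 5.39 to 5.65 in young mice. Of these, Mlana alone passed, at 9.10 in old and 6.22 in young mice, while Pmel was at 5.41 in old and 5.50 in young mice. Mitf differed by 0.57 (limma adjusted p = 0.231), and Tyr, Tyrp1, Dct and Sox10 by -0.06 to 0.12. The mean of 8 hair follicle dermal papilla markers was 4.99 to 5.16 in old and 5.72 to 5.80 in young mice, with Cd24a and Crabp1 lower in old mice. The mean of 8 keratinocyte markers was 5.90 to 7.32 in old and 5.69 to 6.36 in young mice. The highest value belonged to old replicate 3, and 0 of these 8 passed (2 at an unadjusted p under 0.05). Old replicate 4 had the second highest mean, 6.40. Krt5, a keratin of basal keratinocytes, had 7.44, 7.15, 8.78 and 8.43 in old replicates 1 to 4, against 7.29, 6.36, 6.11 and 7.55 in young replicates 1 to 4. Krt5 and Prss23 were both higher in old replicates 3 and 4 than in old replicates 1 and 2, as was Krt14 of the same list. Among young mice Krt5 was lowest in young replicate 3, where Prss23 was highest. Krt14 was highest of the 8 mice in young replicate 4, at 7.29. Without old replicate 3, the age difference of Prss23 was 2.00. That fit keeps old replicate 4, with Krt5 at 8.43, so it cannot separate Prss23 from keratinocyte RNA. Whether such RNA contributes to Prss23 was not tested.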

How the data were processed

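Expression was measured on Affymetrix arrays, 1 per mouse, in sorted dermal fibroblasts of 4 old and 4 young mice, so replicates are separate animals. The values deposited by the authors are log2 expression per probe set. The submitters' processing notes name RMA and affy without a version. RMA adjusts background, normalizes arrays to each other and summarises probes, which compresses folds of dim genes. The file held 45141 probe sets for 8 arrays, none identical (0 duplicated). No detection calls or genome build are given in the sources used here. The number of arrays limits the precision.

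Of the probe sets, 28898 had 1 gene symbol in the platform annotation, 551 several and 15692 none, and only the first were named. The probe set with the highest mean stood for a gene, which left 17097 genes. The 23 non-specific control probe sets ranged from 2.98 to 7.20, so values above the dim threshold of 5.1 can still lie in their range. A linear model over all genes (limma 3.58.1, R 4.3.3, with eBayes) gave 2-sided tests of old against young mice, with Benjamini-Hochberg adjustment at 0.05, and every adjusted p of a gene comes from such a fit. Run and interaction were tested in the same way with age as a term. The fits were tested on simulated arrays. Genes named were the members, the list genes past the threshold and the next 2 by p above the dim threshold, the 2 genes most like each member, and, of marker lists, those past the threshold and the first 2; any further gene named was chosen after its values were seen. The members and lists were chosen with earlier results of these data known. Alternatives changed the prior, weights, filter, probe set rule, scaling, block and set of mice. Fits by Prss23 probe set and of the run within each age were added after seeing the data, as were correlations with run means removed.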

Additional observations from a re-analysis of the deposited data

Results flagged for a closer look

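Of 78 groups of 4 mice, 3 held a mouse that stood apart from the other 3 by Dixon's test at 95%, where chance gives about 1 in 20. In the dim second probe set of Plat (1458553_PM_at), old replicate 3 was at 4.85 and the other old mice at 4.63 to 4.66. In Pdgfd, old replicate 1 was at 5.09 and the other old mice at 5.83 to 5.93. In Pros1, young replicate 4 was at 7.71 and the other young mice at 8.42 to 8.56.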

How the results depend on the processing

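The number of the 8 genes higher in old mice was 7 to 8 under the alternatives, the 8 coming with the mean of probe sets, with every probe set and without young replicate 4. Htra3 lay between -0.11 and 0.03 in fits that left out 1 mouse. Leaving out 1 mouse at a time lowered the genes called between ages from 679 to between 427 and 606, and 427, 445, 448 and 451 were called without old replicate 2, old replicate 4, young replicate 3 and old replicate 3. The pathway count of 13 was 9 to 11 in these fits and 9 to 15 under all alternatives. With the run of title numbers as a replicate block, 919 genes and 14 pathway genes were called, and only Fap among the named pathway genes changed its call. Of the 8 genes, 0 to 1 were called between runs when leaving out 1 mouse at a time, the 1 being Prss23 without young replicate 1, and 0 for the interaction. With the mean of probe sets, the differences of Plau, Plat and Htra3 were 0.43, 0.59 and 0.45. Signs turned for Pebp1, which ranged from -0.0608 to 0.1283 when leaving out 1 mouse at a time and was negative without old replicates 3 or 4 or young replicate 4, and for Gas6, at -0.17 with the mean of probe sets, and neither passed in any fit. Causes were not tested. Dim probe sets, such as the second ones of Plau and Plat, limit what can be seen.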
